A study of Mus musculus with 12 samples.

Results

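The latrophilins Lphn1, Lphn2 and Lphn3, the filamin-binding pair Filip1 and Filip1l, and the FGD proteins Fgd1, Fgd3, Fgd4, Fgd5 and Fgd6 were followed through 12 RNA-seq libraries of 3T3-L1 adipocytes, a mouse line that is turned from fibroblast-like preadipocytes into fat cells with dexamethasone, IBMX and insulin. These 10 genes, of 27473 counted features, were taken by symbol, and each symbol stood on 1 feature. Lphn3, Filip1l and Fgd3 are genes that the study picked as Dnmt3a targets because their mRNA moved in opposite directions on gain and loss of Dnmt3a in these same libraries. Their changes are therefore given as a description, with no test. The other 7 genes are their relatives, which were taken by family and were tested.

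Mature adipocytes received lentivirus on day 8 of differentiation and, by the sample labels, were harvested 4 days later. The labels give 2 days of contact with virus for every group, whereas the study's methods give a shorter contact. There were 4 groups of 3 libraries each. Dnmt3a cells (labelled Dnmt3a_pCDH) overexpressed the DNA methyltransferase Dnmt3a from the pCDH vector, and GFP cells (GFP_pCDH) carried GFP in the same vector as their control. shDnmt3a cells carried a hairpin against Dnmt3a, and shScr cells (labelled scramble) carried a scrambled hairpin as their control. All groups were of the same line and all were transduced, and the controls of the overexpression and knock-down arms differ in vector. The sources used here do not name the hairpin. The series describes biological triplicates but does not say that they came from separate cultures, so the p-values reflect only how far libraries of a group lay apart, which may be technical.

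Latrophilins are adhesion G protein-coupled receptors, now named Adgrl1 to Adgrl3, which bind teneurins and FLRT proteins on neighbouring cells and are best known for organising synapses. FILIP1 binds the actin crosslinker filamin A and promotes its breakdown in migrating rat neurons, and FILIP1L is its paralog. FGD proteins are exchange factors that load the small GTPase Cdc42 with GTP and so shape the actin cytoskeleton. FGD1 is the gene of human faciogenital dysplasia, and FGD4 is mutated in a human inherited neuropathy.

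The libraries held 29084732 to 47341091 counts, and replicates of a group differed by more than sampling noise (chi-square per degree of freedom 2.44 to 10.1). Dnmt3a itself was at 2730 to 2776 CPM (reads scaled to library size, by the TMM method over all 12 libraries) in Dnmt3a cells, against 90.7 to 96.6 CPM in GFP cells. It was at 39.3 to 41.0 CPM in shDnmt3a cells, against 78.5 to 86.3 CPM in shScr cells. All 10 adipocyte markers checked were detected, and all 10 rose in Dnmt3a cells (edgeR, adjusted p under 0.05), where 14.3% of all features tested rose. Their summed level was 31685 to 31995 CPM in Dnmt3a cells, against 25377 to 26594 CPM in GFP cells, and 21511 to 22057 CPM in shDnmt3a cells, against 22132 to 22989 CPM in shScr cells. On knock-down the adipocyte markers were split, as 3 of the 10 rose and 3 fell (median log2 -0.01), where 23.3% of all features rose and 22.5% fell. A set of 6 preadipocyte and fibroblast markers summed to 6030 to 6739 CPM in Dnmt3a cells, against 6036 to 6294 CPM in GFP cells, and to 12127 to 12172 CPM in shDnmt3a cells, against 7951 to 8481 CPM in shScr cells. Most of that sum was Col3a1, a collagen gene (11593 CPM in shDnmt3a cells, against 7588 CPM in shScr cells), and of the 6 markers 2 rose and 3 fell on knock-down, Pdgfra, Thy1 and Ly6a being the 3 that fell. The part of these marker shifts in the results that follow was not tested, and in bulk RNA a smaller number of expressing cells and less RNA per cell cannot be told apart.

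Lphn3, the third latrophilin, spans 805.0 kb on the plus strand of chromosome 5 (chr5:81449163-82254158, NCBIM37, the Ensembl name of mm9; counted feature uc008xwp.1). Filip1l lies on the plus strand of chromosome 16 (chr16:57353206-57573239, feature uc012agu.1), and Fgd3 on the minus strand of chromosome 13 (chr13:49356923-49415680, feature uc007qjc.1). Dnmt3a places methyl groups on cytosines, mainly where a C is followed by a G, so the 250 bases before annotated transcription starts are shown with every CG pair in capitals and all else in lower case. The sequences are from RefSeq (GRCm38.p6), run 5′ to 3′ on the gene's own strand, and each was found once, without a mismatch, on the same chromosome of NCBIM37, whose coordinates are given. Lphn3 is shown at the most upstream of its 3 RefSeq starts (chr5:81449346-81449595), and Filip1l at both of its RefSeq starts (chr16:57353140-57353389 and chr16:57549105-57549354). Fgd3 is shown at its single RefSeq start (chr13:49404578-49404827), and Lphn2 (chr3:148617600-148617849, minus strand) as the relative whose mRNA changed on both manipulations. The Ensembl annotation also holds transcripts that begin elsewhere, at chr13:49415680 for Fgd3, chr3:148652280 for Lphn2 and chr5:81738899 for Lphn3. No window was read at these positions, so the windows do not cover every annotated start.
Lphn3: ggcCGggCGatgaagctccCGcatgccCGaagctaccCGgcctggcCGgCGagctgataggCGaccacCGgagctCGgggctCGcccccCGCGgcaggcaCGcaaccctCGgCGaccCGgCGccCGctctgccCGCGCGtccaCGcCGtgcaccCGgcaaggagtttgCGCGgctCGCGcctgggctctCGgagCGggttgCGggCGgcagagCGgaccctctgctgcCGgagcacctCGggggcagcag
Filip1l upstream start: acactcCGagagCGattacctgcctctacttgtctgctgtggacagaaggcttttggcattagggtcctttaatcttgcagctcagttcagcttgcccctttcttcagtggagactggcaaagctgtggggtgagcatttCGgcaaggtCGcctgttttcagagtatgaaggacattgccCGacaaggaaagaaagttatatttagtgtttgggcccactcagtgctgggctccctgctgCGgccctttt
Filip1l downstream start: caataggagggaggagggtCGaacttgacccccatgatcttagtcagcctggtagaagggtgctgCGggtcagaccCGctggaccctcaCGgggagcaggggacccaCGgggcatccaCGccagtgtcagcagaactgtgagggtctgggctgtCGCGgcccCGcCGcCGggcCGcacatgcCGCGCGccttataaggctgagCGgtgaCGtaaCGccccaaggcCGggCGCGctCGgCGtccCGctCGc
Fgd3: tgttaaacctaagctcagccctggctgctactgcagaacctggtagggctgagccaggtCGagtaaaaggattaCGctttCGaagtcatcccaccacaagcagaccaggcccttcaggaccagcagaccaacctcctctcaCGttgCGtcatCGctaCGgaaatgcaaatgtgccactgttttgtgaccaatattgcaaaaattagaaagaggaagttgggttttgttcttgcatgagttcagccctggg
Lphn2: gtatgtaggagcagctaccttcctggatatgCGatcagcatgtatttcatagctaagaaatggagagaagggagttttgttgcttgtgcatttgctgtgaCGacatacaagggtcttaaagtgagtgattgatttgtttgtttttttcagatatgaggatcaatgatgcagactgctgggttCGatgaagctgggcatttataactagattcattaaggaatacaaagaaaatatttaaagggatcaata

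These windows differed widely in CG pairs. The Lphn3 window shown held 36, and 2.58% of the 32851 such windows of all RefSeq mouse genes held as many or more. The windows at Lphn3 starts 2 and 3 held 18 each, and 21.7% of all windows held as many or more. The upstream Filip1l window held 6 and the downstream one 25, the Fgd3 window held 7, and the Lphn2 window held 3. Over all windows the median was 6, and 92.1% held at least 1. All 10 genes had a window, 18 in all. The 6 windows of the targets held 6 to 36 CG pairs and the 12 windows of the relatives 3 to 31, so their ranges overlapped almost completely. The sources used here do not say which of several starts a counted feature uses, and methylation was not measured in these libraries.

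**Figure D1:**
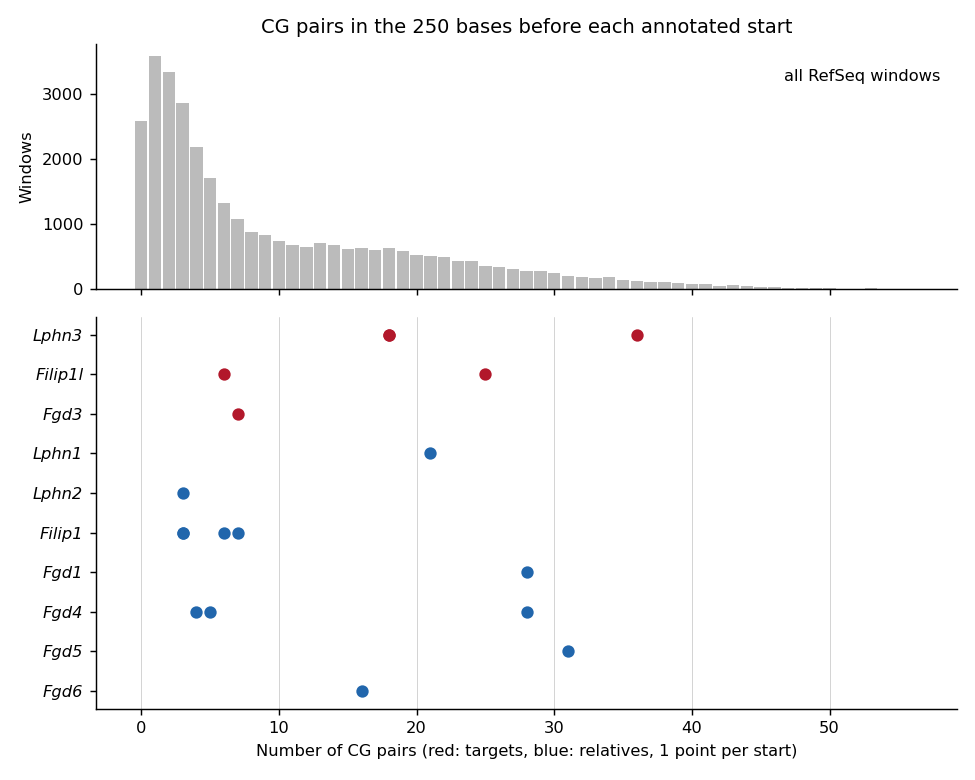
Number of CG pairs in the 250 bases before annotated starts: the upper panel is a histogram of all 32851 RefSeq windows, and the lower panel has 1 point per start of each of the 10 genes (red, targets; blue, relatives). Lphn3 reached 36 and Fgd5 31, whereas Filip1l had starts with 6 and 25.

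Lphn3 was a rare transcript in every library. It was at 0.808, 0.672 and 0.835 CPM in Dnmt3a cells, against 1.66, 1.42 and 1.87 CPM in GFP cells. It was at 1.48, 1.59 and 1.41 CPM in shDnmt3a cells, against 0.659, 0.683 and 0.647 CPM in shScr cells. Dnmt3a libraries were all below GFP libraries and shDnmt3a libraries all above shScr libraries, with no overlap in either pair, which is the pattern the gene was picked for. The log2 fold change was -1.07 (SE 0.22) for Dnmt3a over GFP, a ratio of 0.477, and 1.17 (SE 0.21) for shDnmt3a over shScr, a ratio of 2.25. These values rest on 19 to 33 reads a library in Dnmt3a cells, 57 to 79 in GFP cells, 50 to 66 in shDnmt3a cells and 20 to 26 in shScr cells. In the order of groups, GFP and shDnmt3a overlapped at the top, and Dnmt3a and shScr overlapped at the bottom.

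Filip1l was the most abundant of the targets and the most precisely measured. It was at 9.84, 8.67 and 9.01 CPM in Dnmt3a cells, against 18.8, 20.1 and 18.3 CPM in GFP cells. It was at 19.2, 18.1 and 16.6 CPM in shDnmt3a cells, against 6.50, 6.49 and 6.93 CPM in shScr cells. Neither pair of groups overlapped. The log2 fold change was -1.05 (SE 0.07) for Dnmt3a over GFP, a ratio of 0.483, and 1.44 (SE 0.08) for shDnmt3a over shScr, a ratio of 2.71. GFP and shDnmt3a libraries overlapped at the top of the order, and below them Dnmt3a and shScr libraries were separate.

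Fgd3 had the largest estimated overexpression change of the targets, by a margin within its standard error. It was at 1.01, 1.31 and 1.19 CPM in Dnmt3a cells, against 2.94, 2.38 and 2.89 CPM in GFP cells. It was at 1.61, 1.62 and 2.14 CPM in shDnmt3a cells, against 0.544, 0.657 and 0.906 CPM in shScr cells. The 4 groups were all separate, in the order GFP, shDnmt3a, Dnmt3a and shScr. The log2 fold change was -1.23 (SE 0.18) for Dnmt3a over GFP, a ratio of 0.427, and 1.36 (SE 0.23) for shDnmt3a over shScr, a ratio of 2.56. Counts were low, at 35 to 47 reads in Dnmt3a cells, 96 to 140 in GFP cells, 58 to 76 in shDnmt3a cells and 19 to 28 in shScr cells, and the shScr libraries had the widest relative spread of any target group (coefficient of variation 26.4%, n = 3).

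The controls were not at a common level for any target. In 1 fit of all 12 libraries, which shares its control libraries with the comparisons above, the log2 difference of shScr over GFP was -1.29 (SE 0.21) for Lphn3, -1.52 (SE 0.08) for Filip1l and -1.97 (SE 0.20) for Fgd3. Each of these differences was at least as large as the overexpression change of the same gene. The knock-down level stood near the GFP level for Lphn3 (log2 of shDnmt3a over GFP -0.13, SE 0.17) and for Filip1l (-0.08, SE 0.07), and below it for Fgd3 (-0.62, SE 0.17). The knock-down increase of each target was thus measured from a scrambled-hairpin control that lay below the GFP control. The hairpin and expression vectors differ between these controls, and vector, virus preparation and batch cannot be told apart from the groups.

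**Figure D2:**
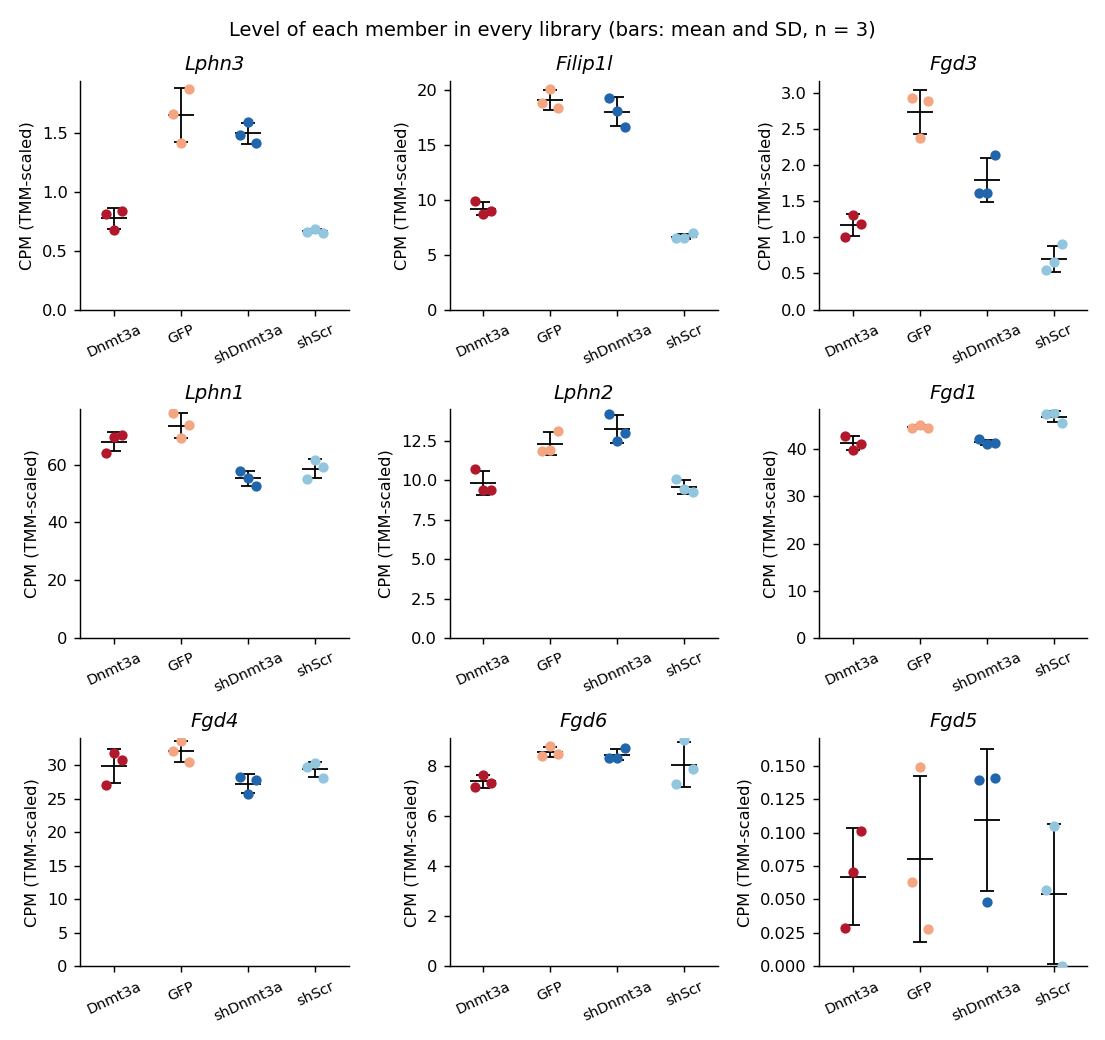
TMM-scaled CPM of each gene in every library (points; bars are mean and SD, n = 3), with groups from left to right Dnmt3a, GFP, shDnmt3a and shScr; Filip1, with no read, is left out. The top row holds the targets, low in Dnmt3a and shScr cells and high in GFP and shDnmt3a cells, and Lphn2 in the second row has the same order of pairs over a narrower range.

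Of the 7 relatives, 5 passed the filter on low counts in each comparison (Lphn1, Lphn2, Fgd1, Fgd4 and Fgd6). In Dnmt3a cells against GFP cells, none of these 5 rose and 1 fell at an adjusted p under 0.05 (edgeR quasi-likelihood test, Benjamini-Hochberg over 14168 features). Of all features tested, 14.3% rose and 12.9% fell. In shDnmt3a cells against shScr cells, 1 of the 5 rose and 1 fell, against 23.3% of 14115 features that rose and 22.5% that fell. Neither count of relatives stands out from these shares, and 4 of the 5 on overexpression and 3 on knock-down did not pass the test.

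Lphn2, a broadly expressed latrophilin, was the relative that moved in both comparisons. It was at 10.7, 9.37 and 9.36 CPM in Dnmt3a cells, against 11.9, 11.9 and 13.1 CPM in GFP cells. It was at 14.2, 12.5 and 13.0 CPM in shDnmt3a cells, against 10.1, 9.43 and 9.26 CPM in shScr cells. All Dnmt3a libraries were below all GFP libraries, and all shDnmt3a libraries above all shScr libraries. It fell by 0.32 on the log2 scale in Dnmt3a cells (SE 0.08, adjusted p 0.00314 by edgeR) and rose by 0.46 in shDnmt3a cells (SE 0.08, adjusted p 7.21e-05 by edgeR). The effect of knock-down minus that of overexpression was 0.77 (SE 0.11, adjusted p 2e-06 by edgeR in 1 fit of all libraries), where 19.9% of 14491 features had a difference called above 0 and 20.4% one below 0. Of the 5 relatives, only Lphn2 was called in that test. These changes were smaller than those of Lphn3, though the 2 genes' changes were not set against each other in a test.

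Lphn1, the latrophilin first found as the receptor of the spider toxin alpha-latrotoxin, did not follow that pattern. It was at 64.2, 69.5 and 70.3 CPM in Dnmt3a cells, against 77.8, 69.1 and 73.6 CPM in GFP cells. It was at 57.8, 55.4 and 52.6 CPM in shDnmt3a cells, against 55.0, 61.6 and 59.3 CPM in shScr cells. The groups overlapped in both pairs. The log2 fold change was -0.11 (adjusted p 0.0791 by edgeR) for Dnmt3a over GFP and -0.09 (adjusted p 0.176) for shDnmt3a over shScr. The first was called without GFP replicate 2 (-0.15, adjusted p 0.0142 by edgeR) and the second without shScr replicate 1 (-0.13, adjusted p 0.0283). Lphn1 lies at chr8:86424004-86465853, where its exons share 1107 bases with Gm10644 on the opposite strand. The sources used here do not say whether reads were counted by strand.

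Fgd1, the most abundant of the FGD genes per length, changed little. It was at 42.8, 39.9 and 41.1 CPM in Dnmt3a cells, against 44.6, 45.2 and 44.4 CPM in GFP cells. It was at 42.1, 41.1 and 41.4 CPM in shDnmt3a cells, against 47.4, 47.7 and 45.6 CPM in shScr cells. The first group of each pair lay below the second with no overlap, but only the knock-down difference was called, a fall, opposite to the rise of Fgd3. The log2 fold change was -0.11 (adjusted p 0.0853 by edgeR) for Dnmt3a over GFP and -0.18 (SE 0.05, adjusted p 0.0036) for shDnmt3a over shScr. Its exons share 1151 bases with Tsr2 on the opposite strand of chromosome X (chrX:147480693-147524064).

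Fgd4, also known as frabin, which binds actin filaments, was at 27.1, 31.9 and 30.8 CPM in Dnmt3a cells, against 32.2, 33.7 and 30.5 CPM in GFP cells, and the groups overlapped. It was at 28.3, 25.7 and 27.9 CPM in shDnmt3a cells, against 29.7, 30.4 and 28.2 CPM in shScr cells, again with overlap. Neither difference was called (log2 -0.10 with adjusted p 0.223 for Dnmt3a over GFP, and -0.11 with adjusted p 0.124 for shDnmt3a over shScr, by edgeR). Fgd6 was at 7.15, 7.64 and 7.31 CPM in Dnmt3a cells, against 8.39, 8.79 and 8.47 CPM in GFP cells, with every Dnmt3a library lower. It was at 8.30, 8.32 and 8.68 CPM in shDnmt3a cells, against 7.25, 9.01 and 7.87 CPM in shScr cells, where the groups overlapped. Neither Fgd6 difference was called (log2 -0.21 with adjusted p 0.074 for Dnmt3a over GFP, and 0.06 with adjusted p 0.608 for shDnmt3a over shScr, by edgeR).

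Fgd5 and Filip1 were at the floor of the assay. Fgd5, a gene best known from endothelial cells, had 0 to 6 reads a library and 35 over all 12, which is too few for a comparison. The 6 endothelial markers summed to only 1.72 to 3.03 CPM over all libraries, and 4 of them were below 1 CPM in each. Filip1 had 0 reads in all 12 libraries, and 3 reads, the limit that a count of 0 allows, would be 0.0629 to 0.106 CPM. Filip1l was thus the only detected gene of its pair.

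**Figure D3:**
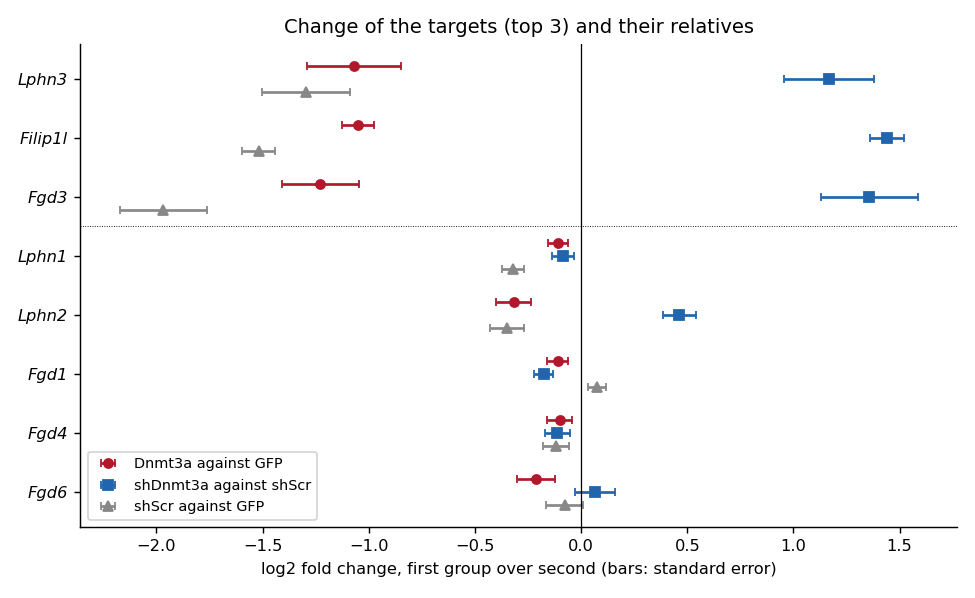
Log2 fold changes with their standard errors for Dnmt3a over GFP (red circles), shDnmt3a over shScr (blue squares) and shScr over GFP (grey triangles), targets above the line and tested relatives below. The targets lie near -1 and above 1 because they were picked on these contrasts, and of the relatives Lphn2 alone (-0.32 and 0.46) has called changes of opposite sign.

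Between the controls, shScr cells had less Lphn1 (log2 -0.32, adjusted p 6.2e-06) and less Lphn2 (log2 -0.35, adjusted p 0.000593) than GFP cells, in edgeR's fit of all 12 libraries. Of the 5 relatives tested, none was called higher and only these 2 were lower, where 23.7% of 14491 features were higher in shScr cells and 22.8% lower. Neither count stands out from these shares. Fgd1, Fgd4 and Fgd6 were not called in that comparison (log2 0.07, -0.12 and -0.08). In shDnmt3a cells against GFP cells, none of the 5 tested relatives was higher and 3 were lower, where 23.6% of features were higher and 22.8% lower. These were Lphn1 (log2 -0.41, adjusted p 1.04e-07 by edgeR), Fgd4 (-0.24, adjusted p 0.00181) and Fgd1 (-0.11, adjusted p 0.0457). The Fgd1 call was lost in edgeR without any single library of the 2 groups (adjusted p 0.0677 to 0.131), with RLE scaling (0.0521), without a filter (0.0993) and in DESeq2 (0.0802). Lphn2 did not pass the test there (log2 0.11, SE 0.08, adjusted p 0.259 by edgeR), which does not show that the 2 levels were equal. Its knock-down change, like that of Lphn3 and Filip1l, was measured from a shScr control below GFP.

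Levels of different genes were compared as RPKM, reads per kilobase of the counted feature, scaled by depth as for CPM. In GFP cells the mean RPKM was 6.56 ± 0.39 for Lphn1, 6.12 ± 0.06 for Fgd1, 4.72 ± 0.23 for Filip1l, 2.75 ± 0.14 for Fgd4, 1.43 ± 0.08 for Lphn2, 1.06 ± 0.03 for Fgd6, 0.619 ± 0.069 for Fgd3, 0.155 ± 0.021 for Lphn3 and 0.0130 ± 0.0101 for Fgd5 (SD, n = 3). Lphn1 and Fgd1 overlapped, and the other neighbours in that order did not. Lphn3 was therefore a minor latrophilin, with 0.999% of the summed latrophilin RPKM in Dnmt3a cells, against 1.90% in GFP cells, and 2.13% in shDnmt3a cells, against 0.974% in shScr cells. Lphn1 held 83.3% in Dnmt3a cells, against 80.5% in GFP cells, and 74.6% in shDnmt3a cells, against 81.6% in shScr cells. Fgd3 was likewise a minor member of its family, with 2.81% of the summed RPKM of the 5 FGD genes in Dnmt3a cells, against 5.86% in GFP cells, and 4.26% in shDnmt3a cells, against 1.58% in shScr cells. Fgd1 held 57.9% to 63.5% of that sum in every group.

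**Figure D4:**
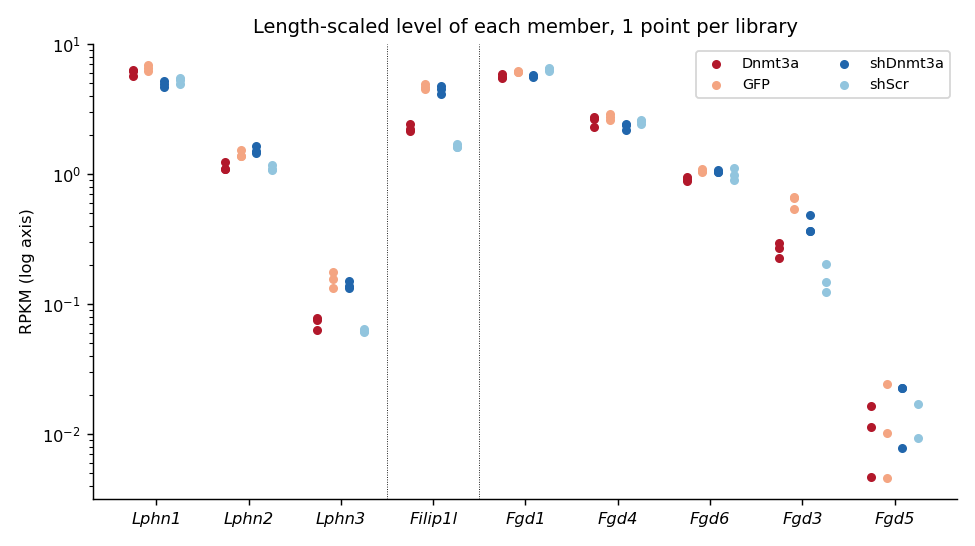
RPKM on a log axis, 1 point per library, with genes sorted by family and level and, within a gene, groups from left to right Dnmt3a, GFP, shDnmt3a and shScr. Lphn3 and Fgd3 sit well below Lphn1 and Fgd1 in every library, and Filip1l, with no Filip1 beside it, spans the widest gap between groups of the abundant genes.

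Lphn3 and Filip1l moved most alike among the targets. As a measure of likeness, each gene's log2 CPM (prior count 2) was centred on its mean and the root-mean-square difference between 2 genes was taken over the 12 libraries. It was 0.181 for Lphn3 and Filip1l, 0.309 for Filip1l and Fgd3, 0.351 for Lphn3 and Fgd3, and 0.371 for Lphn3 and its relative Lphn2. Lphn3 and Lphn1 differed by 0.550, and Fgd3 and Fgd1 by 0.765. Over all genes that passed the filter, members left out, the gene nearest to Lphn3 was Efnb2 at 0.133, an ephrin ligand, followed by the matrix protein gene Tnc at 0.198 and the splicing regulator Mbnl3 at 0.231, where the median gene was at 0.582. Among these same genes Efnb2 was also nearest to Filip1l (0.142), before the transcription factor Klf4 (0.203) and the activin subunit Inhba (0.240), with a median of 0.669. Nearest to Fgd3, again with members left out, were Inhba (0.262), EG232599 (0.287) and Klf4 (0.294), with a median of 0.753. The points share 12 libraries and 4 groups, so these values describe the order of the groups and carry no test. The targets were picked for opposite changes in these same libraries, so their nearness to each other was partly set by that choice.

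Genes that work with latrophilins were read from a list of ligands and partners, of which 16 of 17 were matched and 10 tested. On overexpression 3 fell and none rose (median log2 -0.28, where the median of all features was -0.01), and on knock-down 3 rose and 1 fell (median -0.10, all features 0.00). Of all features tested, 14.3% rose and 12.9% fell on overexpression. On knock-down 23.3% rose and 22.5% fell, and these shares hold for the lists below as well. Flrt2 and Flrt3, membrane ligands of latrophilins, fell in Dnmt3a cells and rose in shDnmt3a cells. The ligand genes Flrt1, Tenm1 and Tenm4 (the last 2 listed as Odz1 and Odz4) were called in neither comparison. For Tenm4 the log2 fold change was -0.07 (adjusted p 0.229 by edgeR) on overexpression and -0.07 (adjusted p 0.466) on knock-down. Flrt2 was at 11.4, 12.4 and 11.4 CPM in Dnmt3a cells, against 20.0, 20.7 and 21.4 CPM in GFP cells, and at 25.3, 24.3 and 23.5 CPM in shDnmt3a cells, against 15.3, 15.6 and 14.5 CPM in shScr cells. Its groups did not overlap in either pair, and it changed by log2 -0.82 (adjusted p 3.36e-11 by edgeR) and 0.69 (adjusted p 2.89e-08). Flrt3 was at 7.01, 7.92 and 6.68 CPM in Dnmt3a cells, against 9.19, 8.12 and 10.7 CPM in GFP cells, and at 8.49, 9.52 and 9.56 CPM in shDnmt3a cells, against 3.75, 3.81 and 2.95 CPM in shScr cells. Its groups did not overlap either. Its change was log2 -0.37 (adjusted p 0.00431 by edgeR, lost at 0.0649 without GFP replicate 3) on overexpression and 1.38 (adjusted p 3.83e-09) on knock-down. As for Lphn3, its shScr level lay below the GFP level (log2 of shScr over GFP -1.39, adjusted p 3.72e-11 by edgeR) and its shDnmt3a level near it (shDnmt3a over GFP -0.02, adjusted p 0.915), whereas Flrt2 was at -0.44 (adjusted p 9.39e-07) and 0.24 (adjusted p 0.00144) in these contrasts, which share the control libraries. Unc5b, a netrin receptor that also binds FLRT proteins, fell in both (log2 -0.44, adjusted p 2.11e-09, and -0.14, adjusted p 0.00866, lost at 0.0597 without shDnmt3a replicate 3). On knock-down it was the 1 gene of the list that fell, and that count was 0 without shDnmt3a replicate 3 and 2 without shScr replicate 1.

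The other adhesion receptors showed no common direction. Of 25 genes, 12 were tested, with 0 higher and 2 lower on overexpression (median log2 -0.17) and 3 higher and 3 lower on knock-down (median -0.02). Without GFP replicate 3 the 2 lower on overexpression became 1. Adgrd1, listed as Gpr133, had the largest change of the list. It was at 0.490, 0.601 and 0.582 CPM in Dnmt3a cells, against 0.504, 0.745 and 0.453 CPM in GFP cells, and at 5.51, 5.26 and 5.02 CPM in shDnmt3a cells, against 0.516, 0.420 and 0.809 CPM in shScr cells. Only the shDnmt3a libraries stood apart, with a log2 fold change of 3.20 (SE 0.18, adjusted p 2.8e-11 by edgeR) on knock-down and -0.02 (adjusted p 0.965) on overexpression. Adgrg6 (Gpr126), known from myelination by Schwann cells, fell on overexpression (log2 -0.91, adjusted p 0.00539 by edgeR) and was not called on knock-down (-0.02, adjusted p 0.956). Adgra2 (Gpr124) fell on both (-0.16, adjusted p 0.00799, and -0.49, adjusted p 4.37e-08), and the overexpression fall was lost without Dnmt3a replicate 1 (0.122) or GFP replicate 3 (0.0562).

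Filamins crosslink actin filaments, and filamin A is the protein that FILIP1 binds. All 3 filamin genes fell on overexpression (median log2 -0.32) and all 3 fell on knock-down (median -0.31), whereas Filip1l moved in opposite directions, for which it had been picked. With 1 library left out, the knock-down count of filamins was 2 to 3. Flna averaged 717 CPM in Dnmt3a cells, against 897 CPM in GFP cells, and 324 CPM in shDnmt3a cells, against 517 CPM in shScr cells. Its log2 fold change was -0.32 (adjusted p 3.19e-08 by edgeR) and -0.67 (adjusted p 1.81e-12), and shScr cells were below GFP cells as well (-0.79, adjusted p 3.39e-17). Flnc, the muscle filamin, fell by 0.38 (adjusted p 3.11e-08) and by 0.31 (adjusted p 2.08e-05). The 6 skeletal muscle markers summed to 86.7 to 93.9 CPM in Dnmt3a cells, against 78.2 to 82.0 CPM in GFP cells, and to 109 to 112 CPM in shDnmt3a cells, against 79.0 to 85.4 CPM in shScr cells, mostly from Des, with Myod1 at 0 in every library.

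Cdc42 and its effectors, the pathway that FGD proteins feed, had 21 of 23 genes tested. On overexpression 2 rose and 7 fell (median log2 -0.04), where 14.3% of all features rose and 12.9% fell. On knock-down 9 rose and 2 fell (median 0.07), where 23.3% of all features rose and 22.5% fell. The 2 that rose became 1 without Dnmt3a replicate 1 or 3, and the 2 that fell on knock-down became 1 without shDnmt3a replicate 2. Cdc42 itself rose on knock-down (log2 0.27, adjusted p 1.75e-05 by edgeR) and was not called on overexpression (-0.01, adjusted p 0.883). Pak3, a kinase that Cdc42 activates, fell on overexpression (-0.35, adjusted p 9.67e-06) and rose on knock-down (0.31, adjusted p 0.00114). So did Wasl, which links Cdc42 to actin branching (-0.29, adjusted p 8.42e-05, and 0.25, adjusted p 0.000663), and the scaffold Iqgap1 (-0.14, adjusted p 0.00411, and 0.24, adjusted p 5.67e-06). The controls differed here too. Pak3 was lower in shScr cells than in GFP cells (log2 -1.26, adjusted p 9.53e-16 by edgeR) and lower in shDnmt3a cells than in GFP cells (-0.96, adjusted p 2.92e-13), Wasl was at -0.26 (adjusted p 0.000236) and -0.01 (adjusted p 0.851), and Iqgap1 at -0.32 (adjusted p 9.83e-09) and -0.08 (adjusted p 0.0531) in the same contrasts.

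Of the other Cdc42 exchange factors 14 of 15 were matched and 12 tested, with 1 higher and 3 lower on overexpression (median log2 0.02) and 4 higher and 2 lower on knock-down (median 0.14). Without Dnmt3a replicate 1 the 1 higher became 2. Dock9, an exchange factor of another structural class that acts on Cdc42, moved against Fgd3. It rose in Dnmt3a cells (log2 0.31, adjusted p 9.36e-08 by edgeR) and fell in shDnmt3a cells (-0.60, adjusted p 4.08e-11). Its shScr level lay above the GFP level (log2 0.58, adjusted p 2.67e-14 by edgeR), and its shDnmt3a level was not called against GFP (-0.03, adjusted p 0.577). Dock6 fell on overexpression (-0.48, adjusted p 0.000287) and was not called on knock-down (0.15, adjusted p 0.189), and Dock11 fell on knock-down (-0.34, adjusted p 2.46e-07) and was not called on overexpression (0.07, adjusted p 0.182). Fgd2, the remaining FGD gene, had at most 11 reads in a library and was not tested. The counts of these lists stand beside the shares of all features given for each comparison above.

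**Figure D5:**
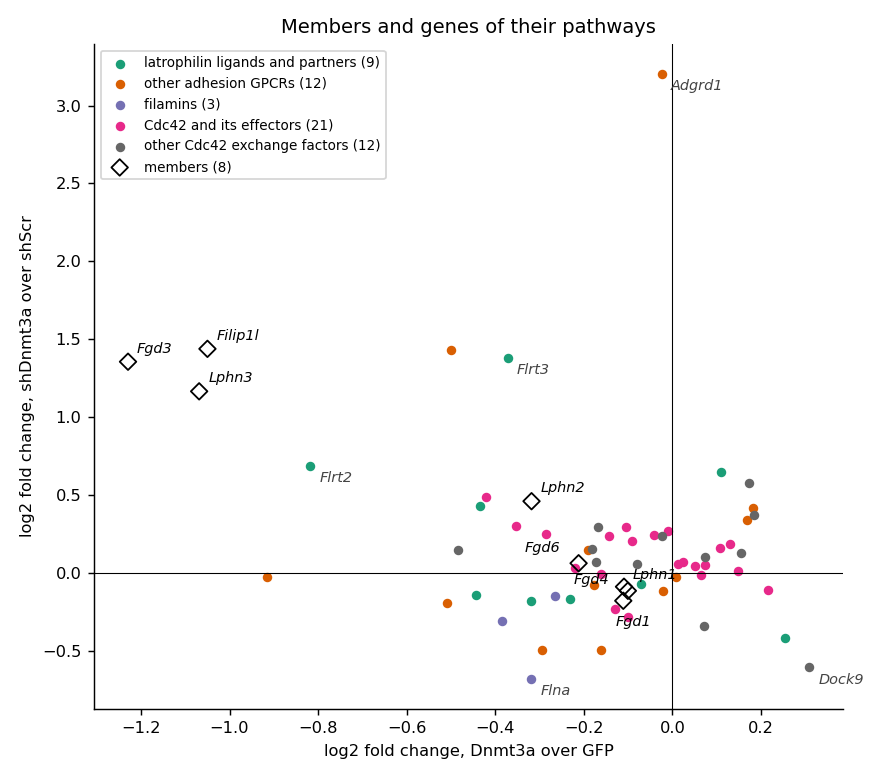
Log2 fold change of Dnmt3a over GFP (horizontal) against that of shDnmt3a over shScr (vertical) for the members (open diamonds) and for list genes tested in both comparisons (coloured points, number per list in the legend). The targets lie at the upper left with Flrt2 and Flrt3, Adgrd1 lies at the top (3.20), and Dock9 at the lower right.

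Since latrophilins are best known from neurons, neuron markers were read beside Lphn3. The 5 that were matched summed to 1.59 to 1.99 CPM in Dnmt3a cells, against 1.61 to 1.76 CPM in GFP cells, and to 2.98 to 3.81 CPM in shDnmt3a cells, against 0.893 to 1.20 CPM in shScr cells. Of these, 4 were below 1 CPM in every library, and the other, Snap25, rose on knock-down (log2 1.87, adjusted p 7.99e-08 by edgeR) and was not called on overexpression (0.30, adjusted p 0.301). The 6 macrophage and leukocyte markers summed to 13.4 to 15.8 CPM in Dnmt3a cells, against 9.27 to 10.3 CPM in GFP cells, and to 15.3 to 15.8 CPM in shDnmt3a cells, against 7.43 to 8.68 CPM in shScr cells, with Adgre1, the F4/80 antigen of macrophages, at 0. The knock-down rise of that sum came from Cd53 (11.3 CPM in shDnmt3a cells, against 2.96 CPM in shScr cells), while Cd68 fell (2.90 CPM in shDnmt3a cells, against 3.69 CPM in shScr cells, adjusted p 0.0418 by edgeR). The part of these markers in the members' changes was not tested.

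Members of a family can share reads where their sequences are identical. Over 14 pairs within the families, targets included, the annotated protein-coding transcripts were searched for common runs of bases. The longest was 36, between Lphn1 and Lphn2, and the next was 24, between Fgd3 and Fgd4. The sources used here do not give the read length, and the part of shared stretches in the counts was not tested. In the Ensembl annotation, Lphn3 exons share 1130 bases with Gm16054 on the opposite strand, so without strand their reads cannot be told apart. Gm16054, Gm10644 and Tsr2 were not found by symbol among the counted features, so their levels could not be read. Whether the counted annotation holds the same overlaps was not checked. Filip1l lies over 2610528E23Rik on the opposite strand with 0 shared exon bases, and that gene was not called in any comparison (adjusted p 0.12 for Dnmt3a over GFP and 0.264 for shDnmt3a over shScr, by edgeR).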

How the data were processed

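The 12 RNA-seq libraries fell into 4 groups of 3 by their sample labels. Ribosomal RNA was depleted, and libraries were made with a TruSeq RNA kit and read on a HiSeq2500. Per the submitters' processing notes and the study's methods, the authors made base calls with bcl2fastq (2.17.1.14), aligned reads to mm9 with TopHat2 (2.0.14), used Picard (2.2.4) and SAMtools (0.1.19), and counted reads per transcript with featureCounts (1.4.6), against a version of mm9 altered so that few transcripts overlap. The authors deposited raw counts, not normalized, for 27473 features, with a symbol and a feature length that the authors deposited beside each. No per-sample column was left unmapped. The 10 genes were found by symbol, and all had 1 feature.

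From these counts, CPM (TMM scaling over 12 libraries) and RPKM (by the deposited length) were computed. Comparisons used edgeR's quasi-likelihood test (edgeR 4.0.16, limma 3.58.1, R 4.3.3) after filterByExpr (minimum count 10), with Benjamini-Hochberg adjustment over all features tested and a threshold of 0.05. Dnmt3a against GFP and shDnmt3a against shScr were fitted on their own 6 libraries, and the other contrasts in 1 fit of all 12. The standard errors are those that match the F statistic. DESeq2 (1.42.0) was an alternative, beside RLE scaling, other filters (none, or 1 CPM in 3 libraries), a replicate block, summed features, another choice of libraries in the fit, and leaving out each library. The procedure was tested on simulated data. Named from each list were the 2 genes with the smallest p in each main comparison, and for each target the 3 genes most like it over 12 libraries. Flrt1, Tenm1, Tenm4, Snap25, Des, Fgd2, Myod1, Adgre1, Col3a1, Pdgfra, Thy1, Ly6a, Cd53, Cd68 and the overlapping genes were named beside that rule. The members, lists and rules were chosen with earlier results of these data known.

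Gene positions came from the Ensembl annotation of NCBIM37, and sequences 250 bases before each start from RefSeq. Libraries held 29084732 to 47341091 counts, so Lphn3 and Fgd3, at 19 to 140 reads a library, carry a large counting error. The qPCR, methylation, protein, mouse and human data of the study were not analysed here.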

Additional observations from a re-analysis of the deposited data

Results flagged for a closer look

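The values here are the effect of knock-down (shDnmt3a over shScr) minus that of overexpression (Dnmt3a over GFP), on the log2 scale, for genes whose effects of the 2 manipulations differed. Adjusted p-values are from edgeR's quasi-likelihood test of that difference in 1 fit of all 12 libraries. The list genes below were named for the smallest p-values in the 2 main comparisons of these same libraries. Their differences were partly set by that choice, so their adjusted p-values are no separate support. Of 14491 features, 19.9% had a difference called above 0 and 20.4% one below 0. Of the relatives, Lphn2 differed (0.77, adjusted p 2e-06). For Lphn3 (2.23), Filip1l (2.48) and Fgd3 (2.58) every library of the overexpressing group was below its control and every library of the knock-down group above its own. These genes had been picked for opposite effects, so the difference was not tested.

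Among latrophilin ligands and partners, Flrt2 (1.497, adjusted p 6.88e-14), Flrt3 (1.75, adjusted p 2.81e-10) and Unc5b (0.29, adjusted p 0.000448) differed. Unc5b fell on both, and less on knock-down. Among other adhesion receptors, Adgrd1 (3.22, adjusted p 1.29e-08), Adgra2 (-0.34, adjusted p 0.000226) and Adgrg6 (0.88, adjusted p 0.0455) differed. The Adgrg6 call was lost in DESeq2 (adjusted p 0.117), without a filter (0.0574) and without any of 10 of the 12 libraries (0.0503 to 0.157). Flna differed by -0.36 (adjusted p 7.15e-07), having fallen more on knock-down.

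In the Cdc42 pathway the difference was 0.65 for Pak3 (adjusted p 1.25e-06), 0.53 for Wasl (adjusted p 2.02e-06), 0.38 for Iqgap1 (adjusted p 3.04e-07) and 0.27 for Cdc42 (adjusted p 0.000373). Of the other exchange factors, Dock9 (-0.92, adjusted p 6.1e-15) and Dock11 (-0.41, adjusted p 1.02e-07) were lower on knock-down than on overexpression, and Dock6 (0.63, adjusted p 0.000686) was higher.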

How the results depend on the processing

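Every change of the 3 targets and of the 5 tested relatives kept its direction under all alternatives run wherever it was called. Lphn2 stayed called on overexpression (log2 -0.38 to -0.27, adjusted p 0.00133 to 0.0313), on knock-down (0.41 to 0.50) and in the difference of the effects (0.72 to 0.83). The number of relatives called was 1 on overexpression but 2 without GFP replicate 2, where Lphn1 was added, and 2 on knock-down but 3 without shScr replicate 1. In the difference of effects it was 1, but 2 without shScr replicate 2, where Fgd6 was added (0.36, adjusted p 0.0221). Leaving out 1 library moved the count of relatives within 1 to 2, 2 to 3, and 1 to 2 in these comparisons, and the count of features called within 3063 to 3830, 5576 to 6289 and 5413 to 5754. RLE scaling and DESeq2 moved the median log2 fold change of all features by at most 0.00849, and no filter by up to 0.0128. Same-numbered libraries did not deviate together (correlations -0.049 to 0.027), so no pairing by number was seen, though a small shared effect could be missed this way. With replicate number as a replicate block 3853 features passed on overexpression and 6023 on knock-down, 1 and 2 of them relatives, and of 115 results only the Fgd1 fall in shDnmt3a against GFP lost its call (adjusted p 0.0624). Depth limits Lphn3, Fgd3 and Fgd5, and a change of Filip1 was not detectable.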
